A study of Mus musculus with 6 samples.

Results

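The *Nr4a* and *Egr* genes, with *Nfatc1*, *Nfatc2*, *Cd69* and *Cd5*, form a set of 10 genes that carry or report the strength of T cell receptor (TCR) signals. The set was chosen by gene name, and 10 of 10 members had values among the 12153 genes measured. Tregs were sorted from B16.F10 melanoma tumors, a transplantable mouse melanoma line, on day 15 after inoculation, and RNA-Seq gave 3 control and 3 Nr3c1-Foxp3Cre libraries. Mice of both groups carried floxed *Nr3c1*, the gene of the glucocorticoid receptor (GR). The labels add a Foxp3-YFP/Cre allele in the Nr3c1-Foxp3Cre mice, in which Cre is made from the *Foxp3* promoter and so deletes GR in cells that express *Foxp3*, and name no Cre in control mice. The age of the mice is not given in the sources used here. The labels describe a CD4+CD25+ sort and the study's methods a Foxp3-YFP+ sort, so a difference in sorting between the groups cannot be told apart from genotype. Nothing in the labels ties each library to a separate mouse, and p-values therefore measure the spread between libraries.

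When the TCR is engaged, a calcium signal activates the phosphatase calcineurin, which lets NFAT proteins such as Nfatc1 and Nfatc2 enter the nucleus. In parallel, the Ras and ERK kinase pathway acts on serum response factor and its partners to induce the zinc finger factors Egr1, Egr2 and Egr3. The nuclear receptors Nr4a1, Nr4a2 and Nr4a3 act without a known hormone and are induced within hours of TCR engagement, and *Nr4a1* is widely used as a reporter of signal strength. CD69 is a surface protein induced early by TCR signals that also retains T cells in tissue, and CD5 is an inhibitory receptor whose level is tuned to the strength of self-reactive signals. In Tregs, Nr4a factors are known to sustain *Foxp3* expression. Values are log2 CPM, the count of a gene scaled to library size, as the authors normalized them, and a difference is Nr3c1-Foxp3Cre minus control on that log2 scale.

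The sequences just upstream of the *Nr4a* genes and *Egr2* are given because these are the induced members for which RefSeq promoters could be used here. Usable RefSeq promoters on GRCm38.p6 were found for 6 members. Capitals mark TGACG on either strand, which is the core of the cAMP response element bound by CREB and related factors. In *Nr4a1* the capitals also cover TGCGTCA, which contains this core on the other strand, and in *Egr2* they also mark a CArG box, the site of serum response factor. Each stretch ends at the base before an annotated start of the gene, and none of its bases lies in an exon of that gene. The *Nr4a1* and *Egr2* stretches lie in introns of longer transcripts. The *Nr4a1* stretch is chr15:101266596-101266845 (plus strand), *Nr4a2* is chr2:57124004-57124253 (minus strand), *Nr4a3* is chr4:48045055-48045152 (plus strand) and *Egr2* is chr10:67537619-67537868 (plus strand).
Nr4a1: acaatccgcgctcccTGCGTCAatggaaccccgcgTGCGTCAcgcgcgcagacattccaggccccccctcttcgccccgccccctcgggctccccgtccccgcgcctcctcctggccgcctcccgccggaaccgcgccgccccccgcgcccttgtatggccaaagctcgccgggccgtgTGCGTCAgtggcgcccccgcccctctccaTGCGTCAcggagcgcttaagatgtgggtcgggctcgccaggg
Nr4a2: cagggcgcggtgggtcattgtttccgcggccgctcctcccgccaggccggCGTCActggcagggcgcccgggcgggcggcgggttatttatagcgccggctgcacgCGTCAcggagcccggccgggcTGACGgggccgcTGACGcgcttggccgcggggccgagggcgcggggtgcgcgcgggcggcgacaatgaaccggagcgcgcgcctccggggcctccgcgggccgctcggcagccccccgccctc
Nr4a3: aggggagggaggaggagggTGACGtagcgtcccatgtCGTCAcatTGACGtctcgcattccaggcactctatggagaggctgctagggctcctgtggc
Egr2: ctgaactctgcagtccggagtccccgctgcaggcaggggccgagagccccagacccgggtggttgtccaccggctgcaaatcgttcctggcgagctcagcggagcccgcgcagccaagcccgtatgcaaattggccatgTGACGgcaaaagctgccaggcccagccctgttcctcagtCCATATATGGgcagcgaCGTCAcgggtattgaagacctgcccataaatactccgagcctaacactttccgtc
In the 250 bases before their RefSeq starts, *Nr4a1*, *Nr4a2* and *Nr4a3* each held 4 copies of TGACG, of which 3 of those of *Nr4a3* fall in the 98 bases printed. Among 32851 promoter windows of that length, 17.8% held the core at least once. In 45 windows, or 0.137%, those of the *Nr4a* genes among them, there were 4 or more copies. All 4 copies at *Nr4a1* lay inside TGCGTCA, which 1.75% of windows held at least once. The only window that held it 4 times was that of *Nr4a1* itself. The cut at 4 copies is the count of the *Nr4a* windows themselves, and TGCGTCA was marked for *Nr4a1* alone. These shares are therefore a description and not a test. The *Egr2* stretch held 2 copies of TGACG and 1 CArG box, and 1.47% of windows held a CArG box. Of the 5 RefSeq windows of *Egr2*, 3 that overlap one another held TGACG and 4 held a CArG box, and the most upstream window held neither. Neither the GR half-site AGAACA, found on either strand in 16.1% of windows, nor the full palindrome of that half-site and its complement 3 bases apart, found in 0.00913% of windows, was in any of the windows of these 6 members, which says only that those letters are not there.

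As a check of the genotype, *Nr3c1* was at 7.15, 7.59 and 6.88 log2 CPM in control libraries and 6.14, 5.45 and 5.90 in Nr3c1-Foxp3Cre libraries (limma adjusted p = 0.120). For the GR target *Tsc22d3* the difference was -1.56 ± 0.16 (SE, adjusted p = 0.0342), and this adjusted p was above 0.05 in 6 of 17 alternatives (0.0639 to 0.221), namely with no mean-variance trend, with a replicate block and without control replicate 3 or any single Nr3c1-Foxp3Cre library. Of 12153 genes, 7 or 0.0576% were called at an adjusted p under 0.05, with 1 higher (0.00823%) and 6 lower (0.0494%). The T cell markers *Cd3d*, *Cd3e*, *Cd3g*, *Trac* and *Cd4* summed to 2909 to 3728 CPM in control and 3121 to 3407 CPM in Nr3c1-Foxp3Cre libraries, and all 6 Treg markers were measured. Of these, *Ccr8* was lower in every Nr3c1-Foxp3Cre library (log2 fold change -0.53, limma unadjusted p = 0.00457, adjusted p near 1), *Ctla4* was at -0.40 (unadjusted p = 0.0853), and the others had an unadjusted p above 0.05. *Foxp3* itself was at 3.39, 4.42 and 3.91 log2 CPM in control and 4.47, 3.50 and 3.90 in Nr3c1-Foxp3Cre libraries. Markers of other cells had values as well. The 7 melanoma markers summed to 3409 to 9134 and 3802 to 9537 CPM, and the 9 macrophage markers to 378 to 569 and 274 to 549 CPM. The 4 fibroblast markers summed to 185 to 457 CPM in control and 75 to 167 CPM in Nr3c1-Foxp3Cre libraries, without overlap. The endothelial marker *Pecam1* was at 44.5 to 51.2 CPM in control and 53.5 to 62.6 CPM in Nr3c1-Foxp3Cre libraries, also without overlap (limma unadjusted p = 0.0436). The CD8 T cell marker *Cd8b1* was at 7.62 to 15.6 and 10.2 to 12.8 CPM and the B cell marker *Cd79b* at 14.1 to 23.4 and 15.1 to 21.3 CPM. The 3 dendritic cell markers with values, *Flt3*, *Xcr1* and *Zbtb46*, summed to 31.0 to 49.1 CPM in control and 34.3 to 44.0 CPM in Nr3c1-Foxp3Cre libraries. *Cd8a* and the NK cell and neutrophil markers had no value.

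Levels of different genes were compared as CPM per kilobase of merged exons. *Nr4a1* was the most abundant member at 124 to 212 CPM per kilobase over the 6 libraries, at the 97.5th percentile of all genes. *Cd5* came next at 75.9 to 99.0 and lay below *Nr4a1* in every library. *Nfatc1* at 32.9 to 46.3, *Egr1* at 29.3 to 39.2 and *Cd69* at 27.9 to 42.0 followed and overlapped one another. Below them, *Nr4a2* at 6.03 to 9.89, *Egr2* at 4.74 to 6.98 and *Nfatc2* at 4.54 to 6.21 overlapped in the same way. *Nr4a3* at 1.89 to 2.57 and *Egr3* at 0.848 to 1.46 CPM per kilobase were the lowest and did not overlap each other, with *Egr3* at the 15.4th percentile. Each family was thus dominated by a single gene in these libraries. On this length-scaled level *Nr4a1* made up 92.7% to 96.1% of the summed *Nr4a* level and *Egr1* 80.3% to 85% of the *Egr* level. *Nfatc1* made up 70.9% to 79.6% of the sum of *Nfatc1*, *Nfatc2* and *Nfatc3*. These are levels of whole libraries, which also held markers of melanoma and other cells, and levels in Tregs alone were not measured.

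**Figure D1:**
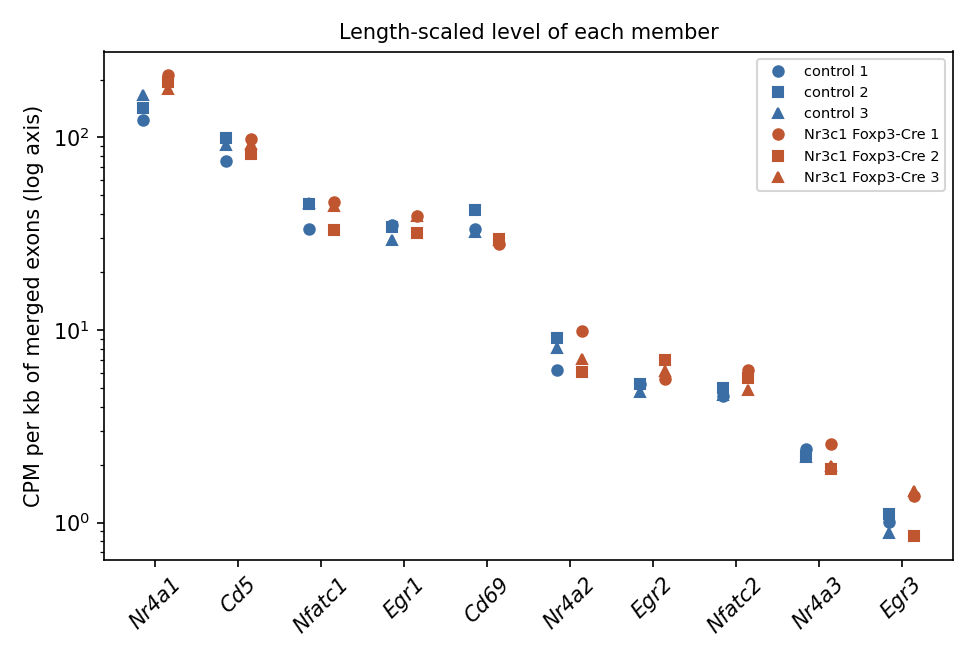
Level of each member in each library, in CPM per kilobase of merged exons on a log axis, with blue for control, orange for Nr3c1-Foxp3Cre and the symbol for the replicate. *Nr4a1* lies above every other member, *Nfatc1*, *Egr1* and *Cd69* share a range from 27.9 to 46.3, and *Egr3* is lowest.

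None of the 10 members had an adjusted p under 0.05 by limma, and the adjusted p rounded to 1 for each. At an unadjusted p under 0.05, 2 of 10 members, *Nr4a1* and *Cd69*, differed between genotypes, against 3.26% of all genes, and they did so in opposite directions. The groups did not overlap for 3 members, *Nr4a1*, *Egr2* and *Cd69*, against 7.41% of all genes. By point estimate 6 members were higher and 4 lower in Nr3c1-Foxp3Cre Tregs, with a median log2 fold change of 0.10, beside -0.0015 over all genes. In the main fit, the 95% interval of every member stayed inside a 2-fold difference in either direction, with its farthest bound at 0.96, for *Egr3*. This was not so in every alternative fit. With the fibroblast marker mean as a covariate, *Nr4a2* was at -0.87 with a standard error of 0.23. The SD pooled over both groups ran from 0.13 to 0.33 beside a median of 0.22 over all genes.

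**Figure D2:**
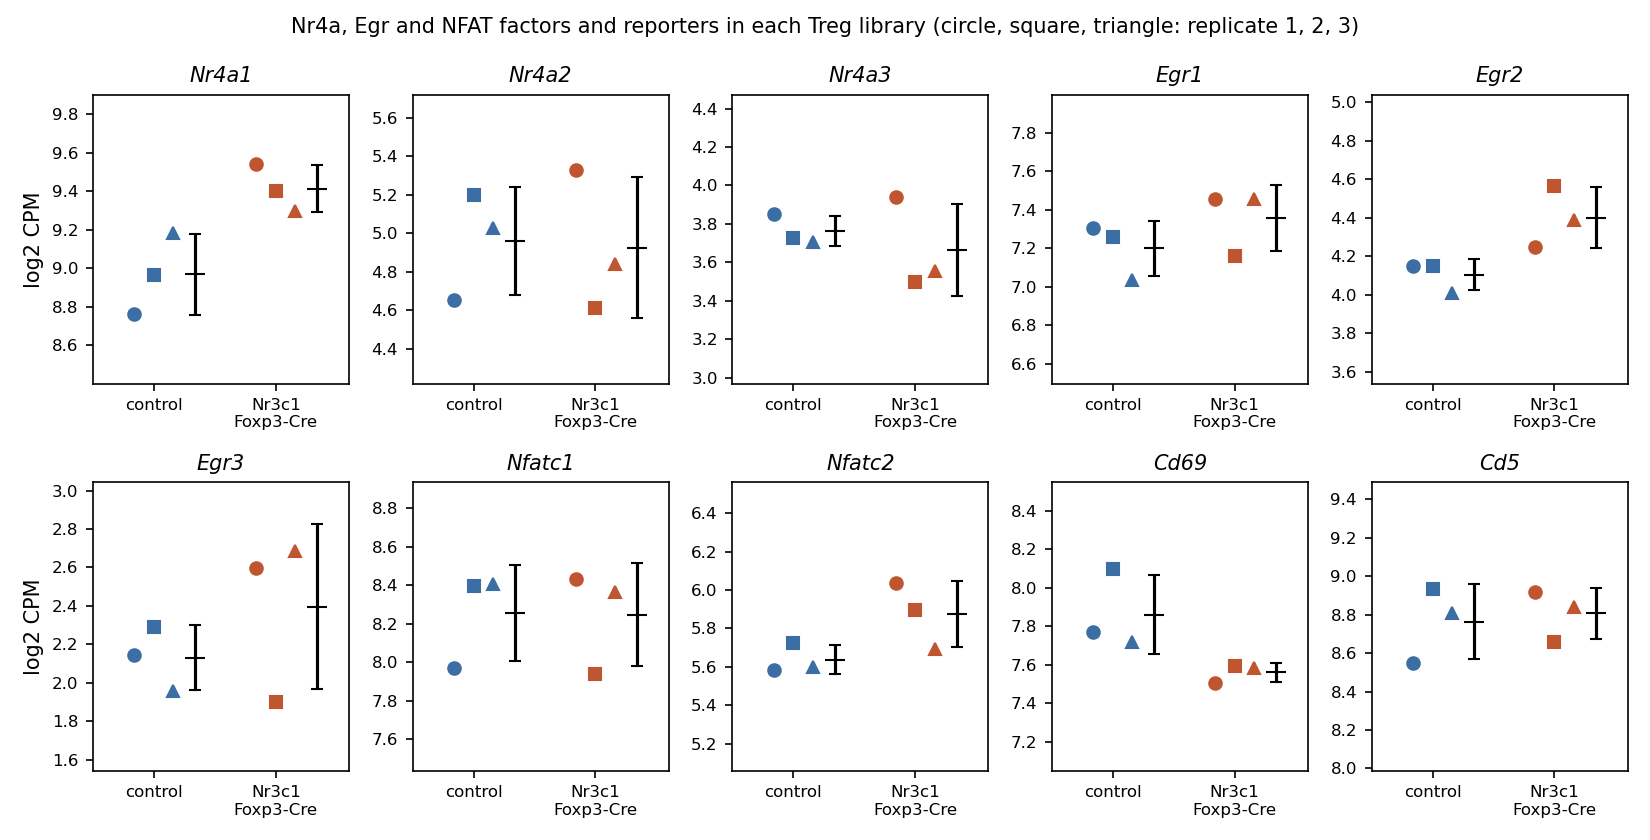
Log2 CPM of each member in each library, with 1 panel per gene and the same span of log2 units in each panel. Blue is control, orange is Nr3c1-Foxp3Cre, symbols are replicates 1 to 3, and black bars are the mean and SD (n = 3). The groups are apart for *Nr4a1*, *Egr2* and *Cd69* and overlap in the other panels.

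*Nr4a1* (ENSMUSG00000023034.7), an orphan nuclear receptor gene (mm10, chromosome 15, 101254269 to 101274795), was at 8.76, 8.96 and 9.18 log2 CPM in control libraries. In Nr3c1-Foxp3Cre libraries it was at 9.54, 9.40 and 9.30. Every Nr3c1-Foxp3Cre library was above every control library, and the nearest pair were 0.12 apart. The log2 fold change was 0.45 (standard error 0.13, 95% interval 0.16 to 0.73, limma unadjusted p = 0.00588), or 136% of control with an interval from 112% to 166%. An exact two-sided permutation test gave p = 0.1, the smallest that 3 libraries against 3 allow. *Nr4a1* is also expressed by myeloid and stromal cells. Markers of such cells went in both directions by point estimate. The median log2 fold change was -1.55 for fibroblast and -0.41 for macrophage markers. For the 3 measured dendritic cell markers it was 0.16, and the endothelial marker *Pecam1* was at 0.28. The fibroblast marker mean as a covariate, an alternative chosen after the marker levels were seen, gave *Nr4a1* a log2 fold change of 0.22. Its standard error was 0.21 (limma unadjusted p = 0.315), and this covariate and genotype can hardly be told apart with 6 libraries. With the macrophage marker mean the log2 fold change of *Nr4a1* was 0.40 and with the melanoma marker mean 0.45. In bulk samples, a change in the share of cells that express a gene and a change in RNA per cell cannot be told apart.

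The related receptors had no such separation. *Nr4a2* (chromosome 2, 57106830 to 57124003) was at 4.65, 5.20 and 5.03 log2 CPM in control and 5.33, 4.61 and 4.84 in Nr3c1-Foxp3Cre libraries. The highest and the lowest of its 6 values were both from Nr3c1-Foxp3Cre libraries, and the log2 fold change was -0.03 (95% interval -0.52 to 0.45). *Nr4a3* (chromosome 4, 48045153 to 48086447) was at 3.85, 3.73 and 3.71 in control and 3.94, 3.50 and 3.56 in Nr3c1-Foxp3Cre libraries, a log2 fold change of -0.10 (95% interval -0.55 to 0.36). Leaving out Nr3c1-Foxp3Cre replicate 1 gave -0.23, and leaving out replicate 2 of that group gave -0.01. Its groups overlapped through Nr3c1-Foxp3Cre replicate 1, which had the highest value, while the other two were below all control libraries. *Nr4a3* was 1.5% ± 0.30 (SD, n = 3) of the summed *Nr4a* level in control and 1.04% ± 0.10 (SD, n = 3) in Nr3c1-Foxp3Cre libraries. The share of *Nr4a1* was 93.4% ± 0.76 and 95.2% ± 0.80 (SD, n = 3 each), and these shares move with the *Nr4a1* values given above.

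*Egr1* (chromosome 18, 34859823 to 34864984), which couples ERK signals to transcription, was at 7.31, 7.26 and 7.04 log2 CPM in control and 7.46, 7.16 and 7.46 in Nr3c1-Foxp3Cre libraries. The groups overlapped through Nr3c1-Foxp3Cre replicate 2, and the log2 fold change was 0.16 (95% interval -0.11 to 0.43). It was 0.07 without control replicate 3, 0.26 without Nr3c1-Foxp3Cre replicate 2 and 0.0016 with the fibroblast covariate. *Egr2* (chromosome 10, 67535475 to 67542188), a factor of T cell anergy and tolerance that acts with Egr3, was at 4.15, 4.15 and 4.01 in control and 4.25, 4.57 and 4.39 in Nr3c1-Foxp3Cre libraries. Here the groups did not overlap, and the lowest Nr3c1-Foxp3Cre value was 0.097 above the highest control value. The log2 fold change was 0.30 (standard error 0.17, 95% interval -0.08 to 0.67, limma unadjusted p = 0.106), and the exact permutation p was 0.1. *Egr3* (chromosome 14, 70077203 to 70082614) was at 2.14, 2.29 and 1.96 in control and 2.60, 1.90 and 2.69 in Nr3c1-Foxp3Cre libraries. Its Nr3c1-Foxp3Cre libraries thus held the lowest value and also the top values, and the log2 fold change of 0.27 had the widest interval of the set (-0.43 to 0.96). Leaving out 1 library moved it from 0.12, without Nr3c1-Foxp3Cre replicate 3, to 0.51, without replicate 2 of that group. Its control mean, 4.38 CPM as a geometric mean, was also the lowest of the set, and without counts its sampling error is unknown. With the macrophage marker mean as a covariate its log2 fold change was 0.00094.

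*Nfatc1* (chromosome 18, 80606205 to 80713071), an NFAT factor that is itself induced by NFAT, was at 7.97, 8.39 and 8.41 log2 CPM in control and 8.43, 7.94 and 8.37 in Nr3c1-Foxp3Cre libraries. Each group had a single low library and a closely spaced pair above it, and the log2 fold change was -0.01 (95% interval -0.37 to 0.35). *Nfatc2* (chromosome 2, 168476410 to 168601657), which is already present in resting T cells, was at 5.59, 5.72 and 5.6 in control and 6.04, 5.90 and 5.69 in Nr3c1-Foxp3Cre libraries. The groups overlapped narrowly, through control replicate 2 and Nr3c1-Foxp3Cre replicate 3. Its log2 fold change was 0.24 (standard error 0.13, 95% interval -0.05 to 0.52, limma unadjusted p = 0.0910). It was 0.16 without Nr3c1-Foxp3Cre replicate 1, 0.33 without replicate 3 of that group (unadjusted p = 0.0375) and 0.02 with the fibroblast covariate.

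*Cd69* (ENSMUSG00000030156.5, chromosome 6, 129267325 to 129275436) was the member with the lowest difference. It was at 7.77, 8.10 and 7.72 log2 CPM in control and 7.50, 7.60 and 7.58 in Nr3c1-Foxp3Cre libraries. Every Nr3c1-Foxp3Cre library was below every control library, by at least 0.12, and the Nr3c1-Foxp3Cre values lay closer together than the control values. The log2 fold change was -0.30 (standard error 0.12, 95% interval -0.56 to -0.04, limma unadjusted p = 0.0280), or 81.2% of control with an interval from 67.8% to 97.2%. The exact permutation p was 0.1. Control replicate 2 was the highest library, and without it the log2 fold change was -0.18 (limma unadjusted p = 0.104). The unadjusted p was 0.0774 without Nr3c1-Foxp3Cre replicate 1 and 0.0572 without replicate 3 of that group. *Cd5* (chromosome 19, 10717116 to 10739002) was at 8.55, 8.93 and 8.81 in control and 8.92, 8.66 and 8.84 in Nr3c1-Foxp3Cre libraries. Its highest and lowest values were both from control libraries. The log2 fold change was 0.04 (95% interval -0.23 to 0.32), the interval whose farther bound was nearest to 0 among the members.

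**Figure D3:**
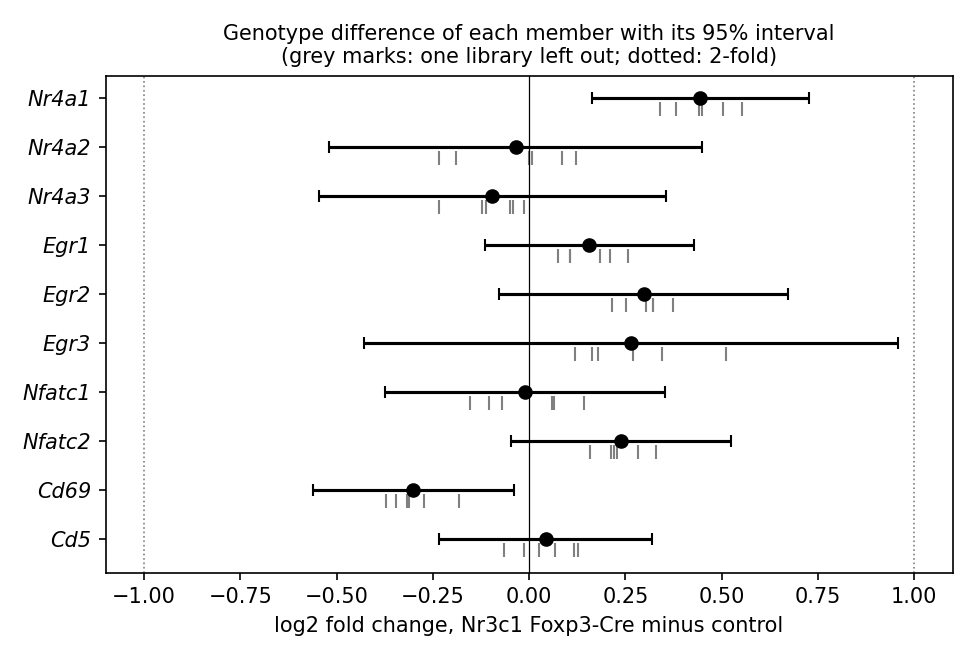
Log2 fold change of each member, Nr3c1-Foxp3Cre minus control, as a point with its 95% interval from limma, with grey marks for the fits that each leave out a single library and dotted lines at a 2-fold difference. The intervals of *Nr4a1*, from 0.16 to 0.73, and *Cd69*, from -0.56 to -0.04, lie on either side of 0, the others cross it, and no interval reaches the dotted lines.

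Across the set, the members did not rank the libraries alike. Nr3c1-Foxp3Cre replicate 1 had the highest value for 6 of 10 members and the lowest for *Cd69*. The lowest value came from Nr3c1-Foxp3Cre replicate 2 for 4 members and from control replicate 1 for 3 members. Fibroblast markers were lowest in Nr3c1-Foxp3Cre replicate 1, at 75 CPM, and highest in control replicate 1, at 457 CPM, and macrophage markers were likewise lowest and highest in these libraries, at 274 and 569 CPM. Adjusting for the fibroblast marker mean gave log2 fold changes of -0.87 for *Nr4a2*, -0.58 for *Nfatc1*, -0.46 for *Cd69* and -0.37 for *Cd5* (limma unadjusted p from 0.00507 to 0.0419). Since the summed fibroblast markers did not overlap between genotypes, this covariate and genotype can hardly be told apart with 6 libraries. The part of other cells in the order of the members was not tested further.

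No gene of the pathways that carry the signal to these factors passed either threshold. Of 25 measured genes of the calcium, calcineurin and NFAT pathway, 0 had an adjusted p under 0.05 by limma and 0 an unadjusted p under 0.05, with a median log2 fold change of 0.04. The groups did not overlap for 3 of them, against 7.41% of all genes, and these are named after their values were seen. The calcineurin catalytic subunit gene *Ppp3ca* had a log2 fold change of 0.26 and the calcineurin regulator *Rcan3* one of 0.31, while *Ppp3cb*, another catalytic subunit, was at -0.23. *Rcan1*, a feedback inhibitor of calcineurin that NFAT induces, was at 4.81 log2 CPM in both groups (difference -0.0016, standard error 0.15). Among 21 measured Ras, ERK and MEF2 input genes and NAB co-repressors of Egr factors, 0 passed at either threshold and the median log2 fold change was -0.01. For *Nab2*, an Egr target and co-repressor, the log2 fold change was 0.23 (standard error 0.18). The 15 genes of negative feedback on TCR signals, among them *Cblb* and *Dgkz*, also had 0 at either threshold and a median of -0.0014. Both *Rcan1* and *Nab2* were named after their values were seen.

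Among 21 measured TCR-induced genes, 0 had an adjusted p under 0.05, and at an unadjusted p under 0.05, 1 was higher and 2 lower, against 1.61% and 1.65% of all genes. The higher gene was *Tnf*, a proinflammatory cytokine, at 3.68, 3.69 and 3.67 log2 CPM in control and 4.31, 4.09 and 4.83 in Nr3c1-Foxp3Cre libraries. Its control libraries lay within a few hundredths of a log2 unit, below every Nr3c1-Foxp3Cre library (log2 fold change 0.72, standard error 0.22). The inhibitory receptor gene *Lag3* was at 4.25, 5.10 and 4.46 in control and 3.80, 3.25 and 3.98 in Nr3c1-Foxp3Cre libraries. It too had no overlap between groups, with the opposite sign (log2 fold change -0.93, standard error 0.27), and the chemokine gene *Xcl1* was at -0.59 ± 0.24 (SE) on the same scale with overlap. The other 18 genes, including *Irf4*, *Myc* and *Tnfrsf9*, had an unadjusted p above that threshold, and the median of the list was -0.0090.

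Of 18 other immediate-early genes measured, 0 had an adjusted p under 0.05, 13 were higher and 5 lower by point estimate, and the median log2 fold change was 0.13. At an unadjusted p under 0.05 there was 1 higher, *Ier2*, and 2 lower, *Dusp1* and *Dusp2*, against 1.61% and 1.65% of all genes. *Ier2*, a nuclear early response gene, was at 7.83, 8.0 and 7.81 log2 CPM in control and 8.07, 8.10 and 8.13 in Nr3c1-Foxp3Cre libraries, without overlap (log2 fold change 0.22, standard error 0.092). For *Dusp1*, a MAP kinase phosphatase that GR induces, the log2 fold change was -0.56 ± 0.13 (SE) without overlap. *Dusp2*, a nuclear phosphatase of ERK, was at -0.57 ± 0.25 (SE) with overlapping groups. Heat shock genes, another group that responds to tissue handling, are given beside them. The 10 heat shock genes had 0 at either threshold by limma and a median log2 fold change of 0.0086, and they summed to 7317 to 9369 CPM in control and 7888 to 8711 CPM in Nr3c1-Foxp3Cre libraries.

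**Figure D4:**
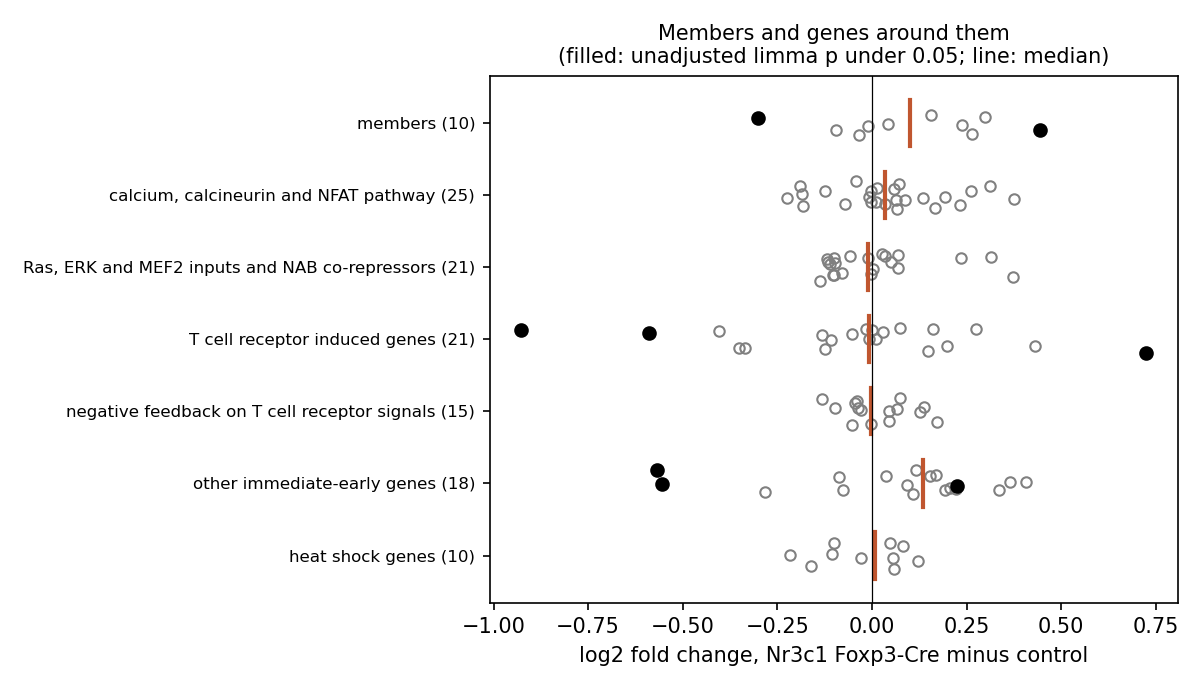
Log2 fold change, Nr3c1-Foxp3Cre minus control, of the 10 members and of the measured genes of each pathway list, with the number of genes in parentheses, filled points for an unadjusted limma p under 0.05 and a line at the median. Medians lie between -0.01 and 0.13, and *Lag3* and *Tnf* are the outermost points.

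The genes whose profile over the 6 libraries was nearest to that of *Nr4a1*, by the root mean square difference of log2 CPM centered on each gene's mean, were *Dido1* (0.054), *Morc2a* (0.061) and *Usp24* (0.063), out of 9290 genes with a mean of at least 3. Those nearest to *Egr1* were *Zcchc2* (0.045), *Endov* (0.051) and *Rabgap1* (0.055). No other member of the set was among the nearest 3 of either gene, and *Egr3*, whose mean was below 3, was not compared. These are given as a description, without a test.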

How the data were processed

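Per the study's methods, the authors used Cutadapt for trimming, STAR for alignment (mm10) and RSEM for quantification against GENCODE M21, then filtered genes of low CPM and quantile normalized the libraries. The deposited values are log2 CPM after that normalization. Counts and read depth are unknown, so no counting interval is given and 3 libraries per group limit the precision. Quantile normalization gives all libraries 1 distribution, so differences are relative to the other genes.

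Genotype was tested over 12153 genes by limma 3.58.1 (R 4.3.3, lmFit, eBayes with a mean-variance trend, two-sided, Benjamini-Hochberg over all genes, threshold 0.05), which was tested on simulated data. The voom weights of the study need counts and were not used. Groups came from the sample labels. Positions and merged exon lengths came from GENCODE M21 by Ensembl identifier, and promoters from RefSeq. Motif counts used Python 3.11.15.

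Named genes were the members, *Nr3c1*, *Tsc22d3*, up to 2 genes per direction with the largest difference in each pathway list at an unadjusted p under 0.05, and the 3 nearest profiles of *Nr4a1* and *Egr1*, with exceptions stated. Members and lists were chosen with earlier results of these data known. Alternatives were other moderation, library weights, scaling, filters, log2(CPM + 1), marker covariates, a replicate block and leaving out each library. Same-numbered libraries deviated with correlations of -0.117, -0.329 and -0.0246 across genes, so the numbers were not taken as pairs.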

Additional observations from a re-analysis of the deposited data

How the results depend on the processing

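No member had an adjusted p under 0.05 under any of the 17 alternatives. For *Nr4a1* the log2 fold change ranged from 0.22 to 0.55, and the unadjusted p was under 0.05 in 16 of 17, the exception being the fibroblast marker covariate. *Cd69* lay between -0.46 and -0.18, with an unadjusted p under 0.05 in 12 of 17. *Egr2* lay between 0.22 and 0.49. The number of members with an unadjusted p under 0.05 was 1 without a mean-variance trend, 4 with sample quality weights, 4 with the fibroblast marker mean as a covariate, and from 1 to 2 without one library. Sample quality weights gave control replicate 3 a weight of 7.47 and the other libraries from 0.52 to 0.86, and the 4 members were *Nr4a1*, *Egr1*, *Egr2* and *Nfatc2*. Under the fibroblast covariate, chosen after the marker levels were seen, they were *Nr4a2* (-0.87), *Nfatc1* (-0.58), *Cd69* (-0.46) and *Cd5*. The median log2 fold change of the members was -0.049 with the macrophage and -0.28 with the fibroblast covariate, and from 0.047 to 0.18 without one library.

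Over all genes, limma called 1 higher and 6 lower. In the fit with no mean-variance trend these counts were 0 and 0. A replicate block likewise gave 0 and 0, with an unadjusted p under 0.05 for 2 members. The correlations of same-numbered libraries do not pair the samples. With sample quality weights 7 were higher and 12 lower, with the melanoma covariate 4 and 14, with the macrophage covariate 11 lower and with the fibroblast covariate 0 higher and 10 lower. Without one library from 0 to 3 were higher and from 0 to 5 lower. Signs reversed for *Cd5* with the macrophage covariate (-0.099) and the fibroblast covariate (-0.37), and for *Egr3* with the latter (-0.25). Without one library *Cd5* ranged from -0.065 to 0.13, *Nr4a2* from -0.23 to 0.12 and *Nfatc1* from -0.15 to 0.14. The causes were not tested.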
